A study of Homo sapiens with 5 samples.

Results

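The cyclin-dependent kinase inhibitor genes CDKN1A, CDKN1B, CDKN1C, CDKN2A, CDKN2D and CDKN3, together with the cyclin G2 gene CCNG2, were examined in TF-1, a line established from a human erythroleukaemia, which is kept in GM-CSF and serves as a model of erythroid progenitors. The genes were chosen by name, and every probe set that the platform's annotation gives to one of them alone was taken. This gave 16 probe sets of 7 genes, out of 19065 probe sets of 11963 genes with a single symbol, and CDKN2C, the eighth gene named, was not analysed here. Mutant cells carried the MSCV retroviral vector with DbSCL, a form of the transcription factor SCL (gene TAL1) that cannot bind DNA, marked with GFP. They were stimulated for 6 h with 20 ng/mL Steel factor (SF), which activates the c-Kit receptor, or with erythropoietin (Epo, dose not stated in the labels). Control cells carried the MSCV vector with GFP alone and received SF, Epo or GM-CSF (5 ng/mL) for the same time. Both populations had been deprived of growth factor overnight, and no group was left without cytokine. DbSCL was expressed from a retrovirus on top of whatever SCL the line makes itself. There was a single array for each of the 5 groups, so the differences below have no replicate check and carry no p-value.

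Progress of a cell from G1 into S phase is driven by cyclin-dependent kinases bound to cyclins, and these kinases are held back by small inhibitor proteins. The CIP/KIP inhibitors p21 (CDKN1A), p27 (CDKN1B) and p57 (CDKN1C) bind kinases together with their cyclins, and the INK4 inhibitors p16 (CDKN2A) and p19 (CDKN2D) bind CDK4 and CDK6 and keep D-type cyclins away from them. CDKN3 is a phosphatase that removes the activating phosphate of CDK2, and cyclin G2 is an unconventional cyclin that accumulates in cells leaving the cycle. In haematopoietic cells, cytokine signals through the PI3 kinase pathway keep the FOXO transcription factors out of the nucleus, and CDKN1B and CCNG2 are known FOXO targets. Levels of p27 are also set after transcription, through SKP2 and its cofactor CKS1B, which mark the protein for degradation.

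Values are log2 signals as deposited. A signal was called low when it did not exceed a floor of 4.45, the 40th percentile of all values that are not array controls. Of the 16 probe sets, 7 were above this floor on all 5 arrays, 3 on some arrays and 6 on none. Thus 43.8% of these probe sets were above the floor on all arrays, compared with 57.9% of all probe sets with 1 symbol. A difference is the log2 signal of one array minus that of another, with signals under the floor set to it, and it was counted when it reached 1 (2-fold). An error for a single difference was estimated without replicates, from how far the DbSCL difference under SF departs from that under Epo across probe sets of like signal. This spread ran from 0.13 to 0.25 and includes any real dependence of the DbSCL effect on the cytokine. It is scaled as a standard deviation, so a difference beyond it need not be real. The vector GM-CSF array did not enter it, so for differences from GM-CSF it is only a rough scale. All 9 erythroid progenitor markers on the array, with KIT, GATA1 and EPOR among them, were above the floor on all arrays in their brightest probe set. EPOR and CSF2RA also had probe sets under the floor on every array. The summed signal of the 9 markers was 66.0 on DbSCL SF against 67.8 on vector SF, and 66.4 on DbSCL Epo against 68.1 on vector Epo. It was thus lower with DbSCL under both cytokines, and it was 65.4 on vector GM-CSF. TAL1 in its brightest probe set read 8.29 and 8.31 in DbSCL cells under SF and Epo, against 8.31 and 8.59 in vector cells, but whether it reads the DbSCL construct was not determined, so it does not check the labels. Of the 10 markers of other cell types on the array, 5 were below the floor on every array (CD14, ELANE, COL3A1, EPCAM and KRT19). COL1A1, CD3D and CD3E were above it on all 5.

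CDKN1B was the gene of the group whose signal differed most between arrays, with a range of 1.25. Its promoter is shown because DbSCL is a form of SCL, a factor that acts through E-boxes, the CANNTG motif. DbSCL itself cannot bind DNA. The promoter of the paralogue CDKN1A is shown for comparison. Both windows are from RefSeq (GRCh38.p14) and run from 250 bases before to 50 bases after the annotated gene start, chr12:12717118-12717417 on the plus strand for CDKN1B and chr6:36678464-36678763 on the plus strand for CDKN1A. Capitals mark CCAAT (also read as ATTGG) and CANNTG.
CDKN1B: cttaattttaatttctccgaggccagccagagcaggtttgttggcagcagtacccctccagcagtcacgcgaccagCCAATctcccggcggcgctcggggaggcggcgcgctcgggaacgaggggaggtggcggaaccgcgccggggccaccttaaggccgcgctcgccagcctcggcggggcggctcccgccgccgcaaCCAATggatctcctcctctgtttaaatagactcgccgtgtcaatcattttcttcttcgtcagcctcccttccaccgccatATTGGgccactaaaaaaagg
CDKN1A: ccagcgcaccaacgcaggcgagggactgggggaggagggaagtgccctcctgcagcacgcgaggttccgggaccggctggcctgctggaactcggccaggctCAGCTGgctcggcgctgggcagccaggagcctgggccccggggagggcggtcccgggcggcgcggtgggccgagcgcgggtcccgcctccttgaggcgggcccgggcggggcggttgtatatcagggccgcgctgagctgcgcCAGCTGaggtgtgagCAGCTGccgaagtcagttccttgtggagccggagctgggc
The CDKN1B window held 0 matches to CANNTG and 3 to CCAAT, of which those 174 and 50 bases before the start were on the plus strand and the one 30 bases after it on the minus strand. The CDKN1A window held 3 matches to CANNTG, all of them CAGCTG, and 0 to CCAAT. Both strands were searched, and CANNTG was found in 68.7% and CCAAT in 34.6% of all 35116 promoter windows available. Neither window held the forkhead motif TGTTTAC (3.42% of all windows) or the GATA motif AGATAA (10.3%). The GC-box GGGCGG (45.0% of all windows) was found once in the CDKN1B window and 4 times in the CDKN1A window. No match overlapped one to another of these motifs. Windows were found for 6 of the 7 genes measured, CDKN2A having 2, and 5 of these 7 windows held CANNTG. A match of letters is a description of the window and not a binding site.

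CDKN1B, measured by 1 probe set (209112_at), had a log2 signal of 4.69 in DbSCL cells under SF, 5.38 in DbSCL cells under Epo, 5.38 in vector cells under SF, 5.94 in vector cells under Epo and 4.74 in vector cells under GM-CSF. The vector Epo array was thus the highest, vector SF and DbSCL Epo held the same value, and DbSCL SF and vector GM-CSF were lowest and lay within the estimated spread of 0.17 of each other. All 5 values were above the floor, but those of DbSCL SF (4.69) and vector GM-CSF (4.74) were near it. They lay among the signals of the brighter CDKN2D probe set, given below as near the floor. CDKN1B differences that use either array, the 2-fold difference between Epo and GM-CSF among them, thus rest in part on a reading near the floor. In bulk RNA, fewer cells expressing a gene and less RNA per cell cannot be told apart.

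**Figure D1:**
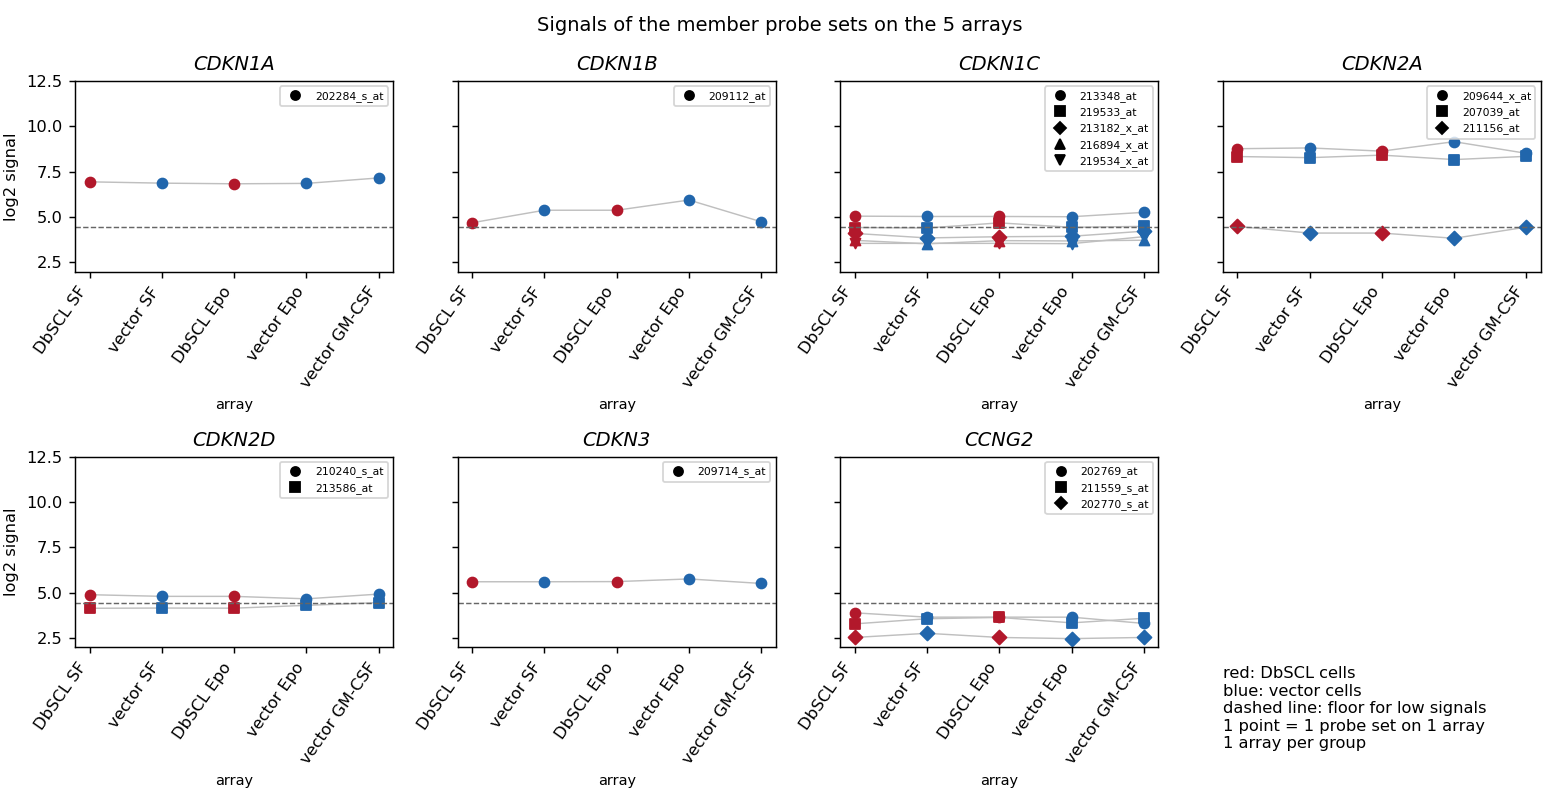
Log2 signal (vertical axis) of each probe set of the 7 genes on the 5 arrays (horizontal axis), 1 point per probe set and array, with DbSCL cells in red, vector cells in blue and the floor of 4.45 dashed. CDKN1B runs from 4.69 to 5.94, while the CCNG2 probe sets lie under the floor on every array.

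With DbSCL, CDKN1B was lower than with the vector under both cytokines. Under SF the signal was 4.69 in DbSCL cells against 5.38 in vector cells, a log2 difference of -0.69, 1.61-fold lower. Under Epo it was 5.38 in DbSCL cells against 5.94 in vector cells, a difference of -0.56, 1.48-fold lower. Both differences exceeded the spread of 0.17 and neither reached 2-fold. These 2 comparisons share no array, but in both the DbSCL array also read higher for the hybridization controls described below. Of 11677 probe sets tested in both, 75 (0.642%) were at least 0.56 lower with DbSCL under both cytokines, CDKN1B included. The 2 DbSCL differences of CDKN1B departed from each other by -0.13, which is less than the spread.

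Between cytokines, CDKN1B was higher under Epo than under the others. In vector cells the signal was 5.94 under Epo against 4.74 under GM-CSF, a difference of 1.20 or 2.30-fold, and this was the single member probe set to reach 2-fold in any comparison, where 3.59% of all probe sets tested for Epo minus GM-CSF did. Of all 12200 probe sets tested there, 1.61% were at least that much higher. Under SF it was 5.38 against 4.74 under GM-CSF, a difference of 0.64 or 1.56-fold, and 5.44% of 12163 probe sets were at least that much higher. Both comparisons use the vector GM-CSF array. SF minus Epo gave -0.69 in DbSCL cells and -0.56 in vector cells. These 2 values equal the DbSCL differences above because 2 of the 5 arrays hold an identical CDKN1B value, so they are no separate measurement. Such ties were frequent, since 58.3% of all probe sets with 1 symbol, and 7 of the 16 here, held the same value on at least 2 arrays.

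**Figure D2:**
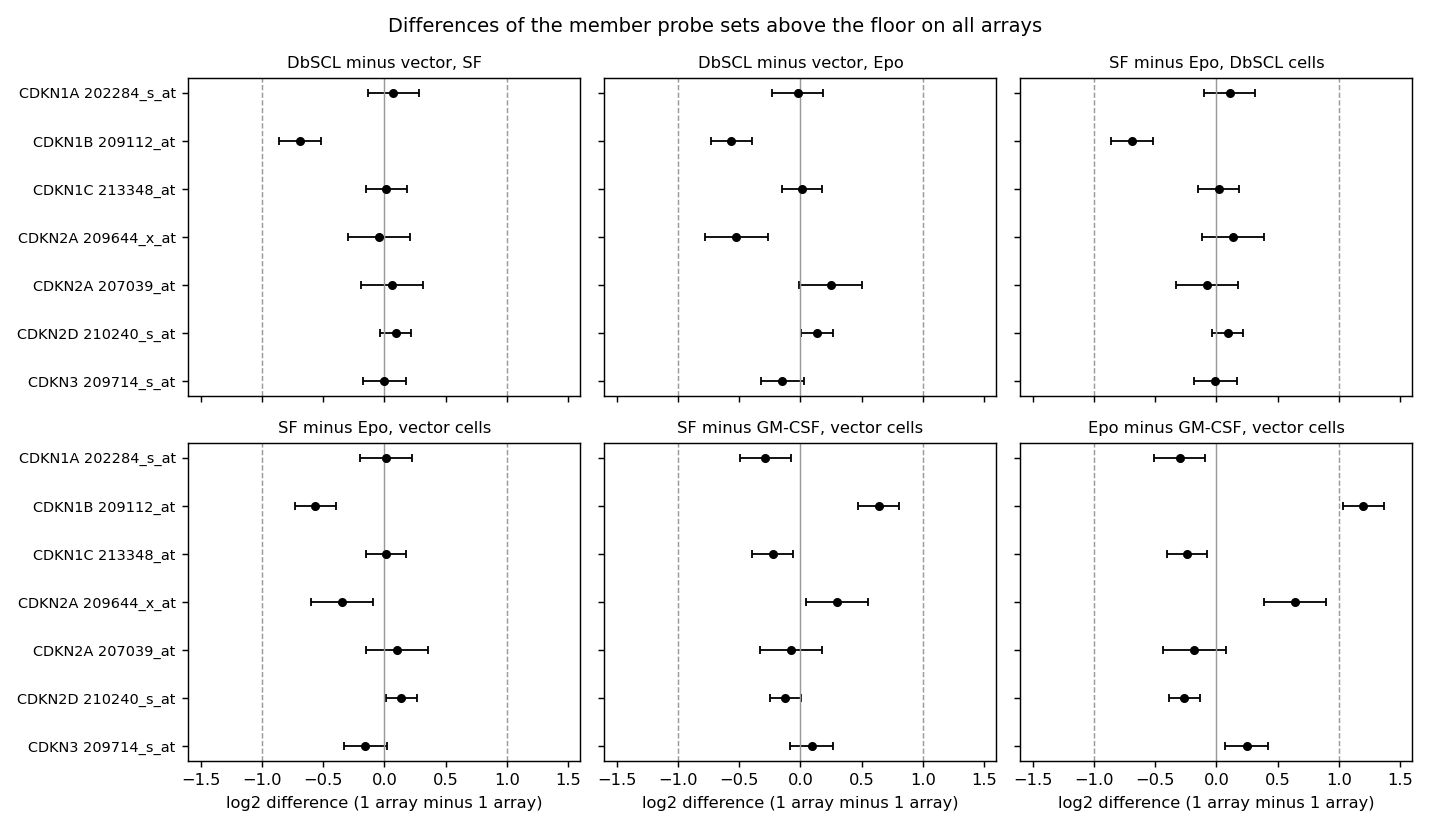
Log2 differences between single arrays (horizontal axis) of the 7 member probe sets above the floor on all arrays (rows) in the 6 comparisons (panels). Bars are the spread estimated without replicates from the SF and Epo arrays, and dashed lines mark 2-fold. CDKN1B lies at -0.69 and -0.56 with DbSCL and passes 2-fold for Epo minus GM-CSF alone, at 1.20.

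Some array controls moved with CDKN1B. The 18 hybridization control probe sets, which read bacterial and phage transcripts added to each array, averaged 10.57 on DbSCL SF, 9.78 on DbSCL Epo, 10.02 on vector SF, 9.58 on vector Epo and 10.53 on vector GM-CSF. From the lowest to the highest of these averages, the CDKN1B signal was never higher on the next array. Such an order held for 3.40% of the 11038 probe sets above the floor on all arrays, and the reverse order for 4.26%. Of the 7 member probe sets above the floor on all arrays, CDKN1B alone had either order. The 28S ribosomal RNA signal was 7.07 on DbSCL SF, 6.69 on DbSCL Epo, 6.55 on vector SF, 5.80 on vector Epo and 7.82 on vector GM-CSF. The signal of beta-actin at its 3' end minus that at its 5' end is a measure of RNA integrity and labelling. It was 3.33 on DbSCL SF and 3.01 on DbSCL Epo, against 1.89 on vector SF, 2.74 on vector Epo and 2.63 on vector GM-CSF. For GAPDH the same measure was 2.53 and 2.44, against 1.58, 2.05 and 2.19, in that order of arrays. Both measures were highest on the DbSCL arrays, so RNA integrity or labelling and SCL form cannot be told apart here. The poly(A) controls read 9.70 on DbSCL SF, 9.93 on DbSCL Epo, 9.61 on vector SF, 9.97 on vector Epo and 9.54 on vector GM-CSF, highest on the array with the highest CDKN1B signal. DbSCL SF and vector GM-CSF, which differ in both SCL form and cytokine, had close hybridization controls and close CDKN1B signals. The part of these control values in the CDKN1B differences was not tested.

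**Figure D3:**
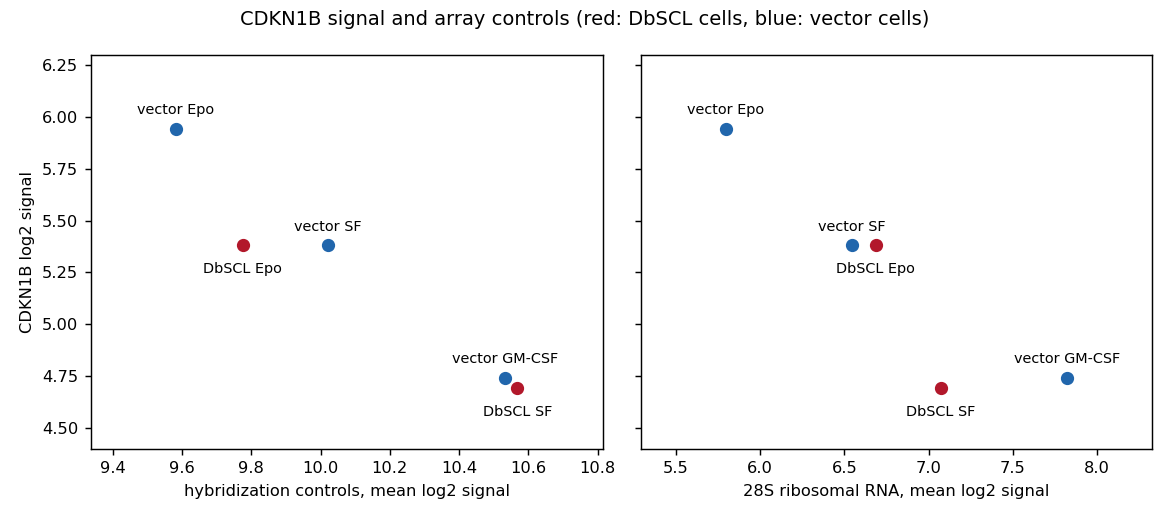
CDKN1B log2 signal (vertical axis) on each of the 5 arrays against the mean log2 signal of the hybridization controls (left) and of 28S ribosomal RNA (right), with DbSCL cells in red and vector cells in blue. Vector Epo has the highest CDKN1B signal (5.94) and the lowest controls (9.58 and 5.80).

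CDKN1A, the p21 gene and a main target of p53, differed less between arrays, with a range of 0.32. Its 1 probe set (202284_s_at) had a signal of 6.95 in DbSCL cells under SF, 6.84 in DbSCL cells under Epo, 6.87 in vector cells under SF, 6.86 in vector cells under Epo and 7.16 in vector cells under GM-CSF. The vector GM-CSF array was the highest and the other 4 lay close together. The DbSCL differences were 0.07 under SF and -0.02 under Epo, both within the spread of 0.21. Against GM-CSF, vector cells were lower under SF (difference -0.29) and under Epo (-0.30), short of 2-fold. Both exceeded the spread, which does not include the GM-CSF array. They were -0.21 each with median centring, about the size of the spread. Cyclic loess gave -0.39 and -0.42, and quantile normalization -0.47 and -0.52.

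CDKN1C, the imprinted p57 gene, had 5 probe sets, and 1 of them (213348_at) was above the floor on all arrays. It read 5.05 in DbSCL cells under SF, 5.04 in DbSCL cells under Epo, 5.04 in vector cells under SF, 5.02 in vector cells under Epo and 5.26 in vector cells under GM-CSF. As with CDKN1A, vector GM-CSF stood highest: SF minus GM-CSF was -0.23 and Epo minus GM-CSF was -0.24. Such values were common, since 30.1% and 30.6% of probe sets of like signal were at least that much lower. The DbSCL differences were 0.02 under SF and 0.01 under Epo. The GM-CSF differences lay inside the spread of 0.16 with cyclic loess (-0.12 and -0.11) and with median centring (-0.15 each). A second probe set (219533_at) crossed the floor on 2 arrays, with 4.68 in DbSCL cells under Epo and 4.49 in vector cells under GM-CSF. The 3 others lay between 3.53 and 4.23, under the floor on all arrays.

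CDKN2A encodes p16 and, from a separate first exon, the p53 regulator ARF, and its 3 probe sets disagreed. The brightest (209644_x_at) read 8.77 in DbSCL cells under SF, 8.64 in DbSCL cells under Epo, 8.81 in vector cells under SF, 9.16 in vector cells under Epo and 8.51 in vector cells under GM-CSF. Vector Epo was its highest and vector GM-CSF its lowest array. The second (207039_at) read 8.34 in DbSCL cells under SF, 8.42 in DbSCL cells under Epo, 8.28 in vector cells under SF, 8.17 in vector cells under Epo and 8.35 in vector cells under GM-CSF. Here vector Epo was the lowest array. With DbSCL under Epo the first gave -0.52 and the second 0.25, against a spread of 0.25 for each, and under SF they gave -0.04 and 0.06. For Epo minus GM-CSF in vector cells they gave 0.64 (1.56-fold) and -0.18. The first of these became 0.29 with quantile normalization and 0.37 with cyclic loess, and the mean over the 3 probe sets was -0.05. The third probe set (211156_at) was above the floor by less than 0.05 on 2 arrays, DbSCL SF (4.49) and vector GM-CSF (4.45). Which transcripts each probe set reads was not determined, so no direction is given for the gene.

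CDKN2D, the p19 INK4 gene, stayed near the floor. Its brighter probe set (210240_s_at) read 4.90 in DbSCL cells under SF, 4.80 in DbSCL cells under Epo, 4.81 in vector cells under SF, 4.67 in vector cells under Epo and 4.93 in vector cells under GM-CSF. Vector Epo was the lowest array and the whole range was 0.26. DbSCL minus vector was 0.09 under SF and 0.14 under Epo, against a spread of 0.13, and Epo minus GM-CSF was -0.26. With the mean of both probe sets the DbSCL difference under Epo was -0.01, and with cyclic loess Epo minus GM-CSF was -0.13. The other probe set (213586_at) exceeded the floor on vector GM-CSF alone, at 4.46.

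CDKN3, the CDK2 phosphatase gene, is a gene of proliferating cells, and its 1 probe set (209714_s_at) differed little between arrays. It read 5.61 in DbSCL cells under SF, 5.62 in DbSCL cells under Epo, 5.61 in vector cells under SF, 5.77 in vector cells under Epo and 5.52 in vector cells under GM-CSF. All arrays but vector Epo lay between 5.52 and 5.62, with vector Epo above them. The DbSCL differences were 0.00 under SF and -0.15 under Epo, within the spread of 0.18, and Epo minus GM-CSF was 0.25.

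CCNG2 was not above the floor on any array in any of its 3 probe sets. The brightest (202769_at) read 3.90 in DbSCL cells under SF, 3.66 in DbSCL cells under Epo, 3.66 in vector cells under SF, 3.66 in vector cells under Epo and 3.31 in vector cells under GM-CSF. The others lay between 2.48 and 3.65. Signals this low have no order, so no difference is given for CCNG2, and a low signal of a probe set does not show that the transcript is absent.

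Over the whole group, 7 to 10 probe sets were tested per comparison, too few to set the counts apart from the background shares. CDKN1B accounted for nearly all probe sets counted. For Epo minus GM-CSF in vector cells, 10 of the 16 probe sets could be tested and 1 was 2-fold or more different, CDKN1B, against a background of 3.59% of all probe sets tested. At 1.5-fold the count was 2, CDKN1B and the brightest CDKN2A probe set, against 15.3%. For SF minus GM-CSF, 0 of 10 reached 2-fold (background 0.666%) and 1 reached 1.5-fold (background 8.4%). With DbSCL under SF, 0 of 8 tested reached 2-fold (background 0.434%) and CDKN1B reached 1.5-fold (background 5.37%). With DbSCL under Epo, 0 of 8 reached 2-fold (background 0.381%) and 0 reached 1.5-fold (background 3.49%). SF minus Epo gave 0 of 9 at 2-fold in DbSCL cells (background 0.233%) and 1, CDKN1B, at 1.5-fold (background 3.8%). In vector cells it gave 0 of 7 at 2-fold (background 0.0425%) and 0 at 1.5-fold (background 1.62%). The median difference of the tested probe sets lay between -0.03 and 0.03 in the 6 comparisons, and that of all probe sets was 0 in each. Against GM-CSF, 3 of the 10 passed the floor through vector GM-CSF alone: 219533_at, 213586_at and 211156_at. The floor held their differences at -0.04, -0.01 and -0.004 under both SF and Epo, so they could not be counted. Without the floor, 211156_at gave -0.33 for SF and -0.62 for Epo minus GM-CSF. Probe sets that passed the floor through 1 array only are among those tested, so these counts and medians do not describe all 16.

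Genes that act with the inhibitors were read from 5 lists, with each gene represented by its brightest probe set. Among cyclins and cyclin-dependent kinases, 12 of 16 were tested, and all 12 were above 0 both for SF minus GM-CSF (median 0.45) and for Epo minus GM-CSF (median 0.43), comparisons that share the GM-CSF array. Bright genes as a class lay the same way: of all genes tested 46.2% and 45.3% were above 0, but of the 4345 genes in the upper 5 of 10 signal bins, which hold all 12, 65.3% and 62.9% were, with medians of 0.13 and 0.16. In the brightest bin the shares were 82.4% and 78.7%, with medians of 0.23 and 0.30. CDK7, the kinase that activates other cyclin-dependent kinases, was counted in both, at 1.32 and 1.98, and CCNB1, the mitotic cyclin B1, in the second at 1.10. The share of all genes past 2-fold was 0.596% for SF minus GM-CSF, 3.58% for Epo minus GM-CSF, 0.355% and 0.371% with DbSCL under SF and Epo, and 0.224% and 0.0361% for SF minus Epo in DbSCL and in vector cells. CDK4, the target of INK4 inhibitors, had a signal of 9.51 in vector cells under Epo, 9.10 under SF and 8.66 under GM-CSF. CCND2 and CCND3, D-type cyclins that pair with it, gave 0.34 and 0.30 for Epo minus GM-CSF, and CCND1 and CDK6 were below the floor on all arrays. With DbSCL the median of this list was -0.10 under SF and -0.13 under Epo, with 0 of 12 counted in either.

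The 10 genes of p27 turnover, all tested, were likewise above 0 in all 10 cases for SF minus GM-CSF (median 0.34) and for Epo minus GM-CSF (median 0.34), and 9 of them were in the upper 5 signal bins just described. One was counted, COPS5 for Epo minus GM-CSF (1.22), a subunit of the COP9 signalosome that also binds p27. Its signal was 7.89 in DbSCL cells under SF, 8.21 in DbSCL cells under Epo, 8.31 in vector cells under SF, 8.76 in vector cells under Epo and 7.54 in vector cells under GM-CSF. SKP2 gave 0.33 in its brightest probe set and 1.19 in a second one, and CKS1B gave 0.31. With DbSCL, 1 of the 10 was above 0 under SF (median -0.18) and 1 under Epo (median -0.06), and none reached 2-fold. Of all genes in those upper bins 37.6% and 38.2% were above 0 there, with medians of -0.01 and -0.02.

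Pocket proteins and E2F factors had 8 of 13 genes tested and 0 counted in any of the 6 comparisons, with a median of 0.18 for SF minus GM-CSF and 0.23 for Epo minus GM-CSF. E2F1 was lower in vector cells under Epo than under GM-CSF (-0.49), and E2F3 was lower with DbSCL under SF (-0.81) but not under Epo (0.11). Of p53 target genes 10 of 20 were tested, and 1 was counted, PLK2 with DbSCL under Epo (1.01). MDM2 was below the floor on all arrays. The list median for Epo minus GM-CSF was -0.04, and 4 of the 10 tested genes were in the upper 5 signal bins. FOXO factors and targets had 11 or 12 of 16 tested and 0 counted, with a median of -0.08 for Epo minus GM-CSF and of 0.02 and 0.04 with DbSCL under SF and Epo. Of the 11 tested against GM-CSF, 4 were in those upper bins. The lists thus differ in signal, and bright genes lay above 0 as a class, so the list medians cannot be set against each other. The FOXO target PIK3IP1 gave -0.70 for Epo minus GM-CSF and 0.51 and 0.33 with DbSCL under SF and Epo. No other tested gene of its list lay as far from 0 in these comparisons. Of the 11 tested, 3 were above 0 for Epo minus GM-CSF. FOXO3, which acts on the CDKN1B promoter, gave 0.36 for Epo minus GM-CSF and -0.11 and -0.28 with DbSCL.

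**Figure D4:**
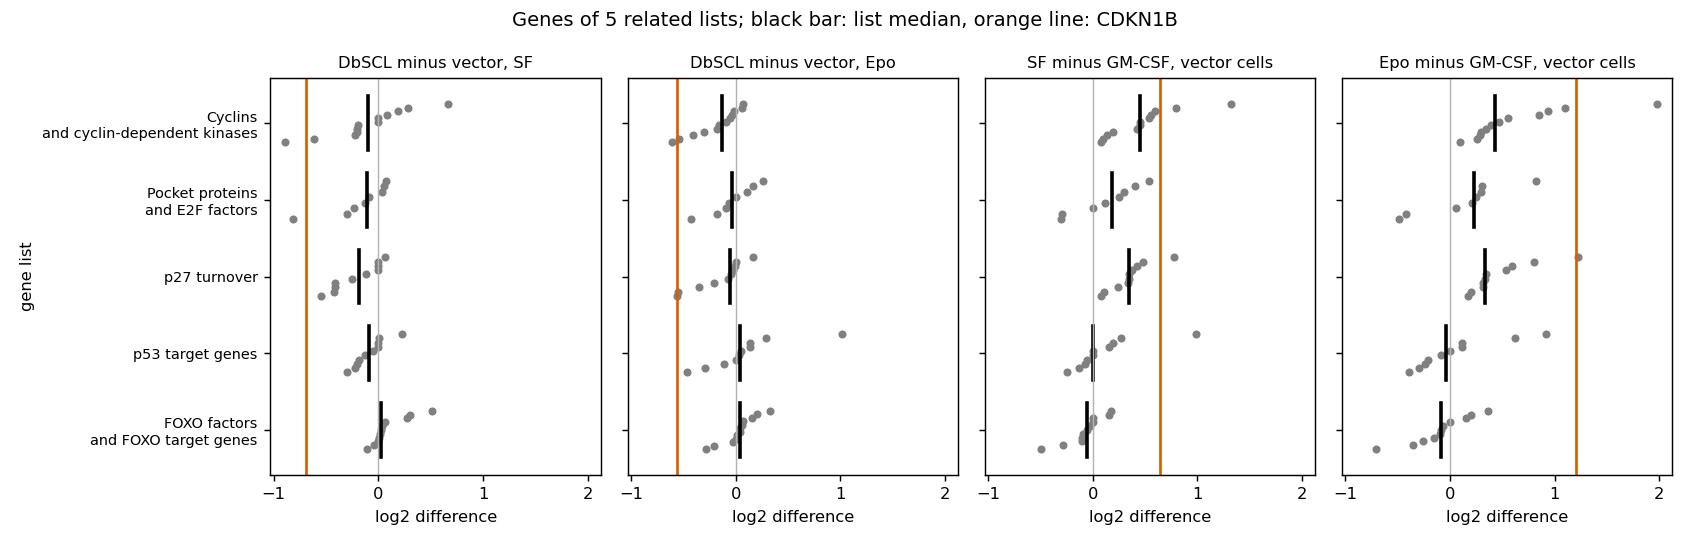
Log2 difference between single arrays (horizontal axis) of the genes of 5 related lists (rows), 1 grey point per gene, in 4 of the comparisons (panels). Black bars are list medians and the orange line is CDKN1B. For Epo minus GM-CSF the median is 0.43 for cyclins and kinases, 0.34 for p27 turnover and -0.08 for FOXO factors and targets. These lists differ in signal, with 12 of 12, 9 of 10 and 4 of 11 genes in the upper 5 signal bins. All genes of those bins had a median of 0.16 there.

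The probe sets most like 3 of the genes were found among the 11038 above the floor on all arrays, by the Euclidean distance between signals centred on their own mean over the 5 arrays. Nearest to CDKN1B were PAK2 (distance 0.10), TBPL1 (0.14) and POLR2K (0.14). PAK2 read 5.60 in DbSCL cells under SF, 6.29 in DbSCL cells under Epo, 6.31 in vector cells under SF, 6.97 in vector cells under Epo and 5.66 in vector cells under GM-CSF. Nearest to the brightest CDKN2A probe set were GAPDH (0.05), OSBP (0.06) and EOLA1 (0.08), and nearest to CDKN1A were MR1, NCR2 and GEMIN7 (0.03 each). Over 5 arrays such likeness describes these arrays alone.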

How the data were processed

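Total RNA of 5 TF-1 cultures was labelled with biotin and read on Affymetrix arrays, per the labels. The authors' deposited values are on a log2 scale, which was read from the values themselves (2.08 to 13.77), with 1 value for a probe set on an array. The summary method, software and any normalization between arrays are not given in the sources used here; medians of the arrays without control probe sets lay between 4.89 and 4.98, and values were used as deposited. Gene symbols came from the platform annotation, with 0 changed through current gene identifiers. Probe sets that were controls (68) or had several symbols (1043) or none (2107) were left out. Differences between single arrays were computed in Python 3.11.15, with a floor at the 40th percentile, and the counting rule was tested on simulated data. The spread is the scaled median absolute deviation of the DbSCL-by-cytokine contrast in 10 bins of signal. Alternatives were quantile normalization and cyclic loess (limma 3.58.1), median centring, other floors, 1.5-fold and the mean of probe sets. Named were all members, counted genes of the 5 lists and nearest probe sets; list genes that were not counted were named after their values were seen. Members and lists were chosen with earlier results of these data known. The number of arrays, 1 per group, limits the precision.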

Additional observations from a re-analysis of the deposited data

How the results depend on the processing

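Lowering the count to 1.5-fold gave 1 member probe set for SF minus GM-CSF, 2 for Epo minus GM-CSF, 1 for DbSCL minus vector under SF and 1 for SF minus Epo in DbSCL cells, where 2-fold gave 0, 1, 0 and 0. The 32 other counts under the alternatives equalled those reported. CDKN1B kept its direction under quantile normalization, median centring and cyclic loess. With the reported values included, it ran from 1.20 to 1.32 for Epo minus GM-CSF. With DbSCL it ran from -0.74 to -0.69 under SF and from -0.59 to -0.54 under Epo. Of 162 gene values under an alternative, 36 were those without the floor. These could not change, because the brightest probe set of each tested gene was above the floor on all arrays. Of the 162, 11 moved by more than the spread (8 of CDKN1A or CDKN2A, 3 of CDKN2D), and the cause was not tested. Among these 11, the mean of probe sets turned the sign of 4 CDKN2A differences, SF minus GM-CSF (0.30 to -0.03), Epo minus GM-CSF (0.64 to -0.05), SF minus Epo in vector cells (-0.34 to 0.02) and DbSCL under Epo (-0.52 to 0.00), and of 2 CDKN2D differences, DbSCL under Epo (0.14 to -0.01) and SF minus Epo in vector cells (0.14 to -0.01). The 1 counted value, CDKN1B for Epo minus GM-CSF, kept its sign. No scaling moved the median of all probe sets by over 0.1. No paired analysis was possible because each group had 1 array. An additive model of SCL form and cytokine, which leaves 1 residual degree of freedom, was not fitted.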
